A study of Mus musculus with 9 samples.

Results

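Open chromatin was described here at 9 mouse genes that direct bone formation or mark it: the regulators *Runx2*, *Sp7*, *Dlx5*, *Dlx6* and *Msx2* and the bone genes *Alpl*, *Spp1*, *Ibsp* and *Bglap*. A region was given to one of these genes when its nearest protein-coding start site belonged to that gene (GENCODE M21, genome mm10). This gave 83 of 97338 regions: 35 for *Runx2*, 13 each for *Spp1* and *Dlx6*, 6 each for *Dlx5* and *Alpl*, 5 for *Sp7*, 3 for *Msx2* and 1 each for *Ibsp* and *Bglap*. The data were ATAC-seq peak lists, in which a peak marks a place that a transposase could enter, from C3H/10T1/2, an established mouse cell line that serves to study mesenchymal progenitor cells (MPCs). There were 3 libraries each of WT cells, which had received Cas9 without a guide RNA, and of the *Atrx* KO clones B10 and G7. Each KO line is 1 clone made with its own guide RNA, so a difference of 1 line from WT cannot be told apart from a difference between clones of the parent line. The labels do not say whether the 3 libraries of a line came from separate cultures, so p-values measure the spread between these libraries, which may be technical.

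RUNX2 is the transcription factor on which the bone-forming lineage depends, and SP7 (osterix) acts after it. DLX5, DLX6 and MSX2 are homeodomain factors that help to pattern the skeleton and to set the activity of bone genes. *Alpl* encodes the alkaline phosphatase that allows mineral to form. *Spp1* (osteopontin), *Ibsp* (bone sialoprotein) and *Bglap* (osteocalcin) encode proteins of the bone matrix, and osteocalcin is a late marker of mature osteoblasts.

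The sequences below are from regions described in the results. The first 5 are the window of the *Spp1* region with the largest difference in the set, and the 200 bases before the start sites of *Spp1*, *Dlx5*, *Bglap* and *Alpl*. The start regions of *Spp1*, *Dlx5* and *Alpl* had a call between lines, and that of *Bglap* had none. Capitals mark exact matches, on either strand, to the core of the RUNX site (TGTGGT or ACCACA), to a loose AP-1 pattern (TGANTCA, the same on both strands) or to a homeodomain site (TAATTG or CAATTA). The AP-1 pattern takes any base at N, and in every AP-1 match printed here that base is A or T. No pair of capital runs overlaps.
Spp1 near-upstream region: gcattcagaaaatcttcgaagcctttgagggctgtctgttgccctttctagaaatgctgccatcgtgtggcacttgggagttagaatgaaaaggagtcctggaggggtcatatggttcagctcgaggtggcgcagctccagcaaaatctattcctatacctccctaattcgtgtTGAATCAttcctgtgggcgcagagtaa
Spp1 start: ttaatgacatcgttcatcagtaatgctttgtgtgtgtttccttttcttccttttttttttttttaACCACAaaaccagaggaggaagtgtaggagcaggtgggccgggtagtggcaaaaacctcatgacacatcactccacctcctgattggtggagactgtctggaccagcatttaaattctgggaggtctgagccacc
Dlx5 start: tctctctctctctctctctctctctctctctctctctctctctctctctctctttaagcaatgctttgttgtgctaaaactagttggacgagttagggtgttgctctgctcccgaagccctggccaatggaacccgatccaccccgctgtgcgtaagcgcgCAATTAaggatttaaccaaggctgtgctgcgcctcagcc
Bglap start: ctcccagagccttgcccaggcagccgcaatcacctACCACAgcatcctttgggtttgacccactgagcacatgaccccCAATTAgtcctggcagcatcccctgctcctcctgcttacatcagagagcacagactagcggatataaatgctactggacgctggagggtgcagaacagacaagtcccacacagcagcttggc
Alpl start: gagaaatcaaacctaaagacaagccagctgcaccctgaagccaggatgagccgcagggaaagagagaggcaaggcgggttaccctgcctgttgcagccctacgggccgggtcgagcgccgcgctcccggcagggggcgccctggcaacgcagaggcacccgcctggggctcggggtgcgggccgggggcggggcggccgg
These lie in mm10 at chr5:104433056-104433256 and chr5:104434918-104435117 on the plus strand, and at chr6:6882086-6882285, chr3:88384434-88384633 and chr4:137796385-137796584 on the minus strand. The *Spp1* and *Bglap* starts each held 1 RUNX core, a match found before 10.2% of 54355 protein-coding start sites. The homeodomain match, seen at *Dlx5* and *Bglap*, was found before 5.01% of them. The near-upstream *Spp1* region held 1 AP-1 match, as 22.3% of all regions did within 201 bases around their summit. The *Alpl* start held none of these letters and had a GC content of 71.5%.

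The other 4 are the 121 bases around the summits of the 3 regions that were lost in both clones, and of the *Runx2* region with the largest rise in B10.
Runx2 lost region: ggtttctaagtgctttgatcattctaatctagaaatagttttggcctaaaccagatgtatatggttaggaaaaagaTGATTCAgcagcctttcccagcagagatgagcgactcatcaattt
Dlx6 lost region: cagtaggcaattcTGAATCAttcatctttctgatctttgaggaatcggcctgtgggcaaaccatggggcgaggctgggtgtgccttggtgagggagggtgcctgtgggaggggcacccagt
Msx2 lost region: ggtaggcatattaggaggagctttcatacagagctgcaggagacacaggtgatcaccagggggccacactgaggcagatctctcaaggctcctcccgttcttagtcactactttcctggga
Runx2 far-upstream region: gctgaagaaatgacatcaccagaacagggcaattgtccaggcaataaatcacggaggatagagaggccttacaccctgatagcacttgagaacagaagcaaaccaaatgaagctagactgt
They lie at chr17:44667524-44667644 (minus strand), chr6:6806176-6806296 (plus strand), chr13:53447757-53447877 (minus strand) and chr17:45020337-45020457 (minus strand). The lost *Runx2* and *Dlx6* regions each held 1 AP-1 match, which 17.6% of all regions held in a window of this length. The other 2 windows held no match to the 3 motifs. A match is a description of the letters and not a test of binding.

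The lists held 76385 to 88535 peaks per library, with most peaks in B10. They hold no read counts, so the depth is unknown and a missing peak means not detected. Replicate 1 of each line stood apart. Over the 47431 regions with a peak in all 9 libraries, the Spearman correlation of replicates 2 and 3 of a line was 0.969 to 0.973, and that of replicate 1 with them averaged 0.892 to 0.926. The region over the *Atrx* start sites (chrX:105928729-105929868) held a peak in all 9 libraries, which does not check the knockout, since the guides cut inside the gene. Of 9 mesenchymal markers, 7 had a peak over a start site in every library and *Thy1* and *Nt5e* had none in any. Of 6 markers of blood, endothelial and epithelial cells, only *Cdh5* had one, in B10 replicate 2, and none of 4 muscle markers had one. Of 6 fat cell markers, *Pparg*, *Cebpa* and *Plin1* had one in all 9 libraries, and of 6 cartilage markers *Sox9* did. Among the other cartilage markers, *Col2a1* had one in all libraries but WT replicate 2, and *Col11a2* in replicate 2 of WT and of B10 only.

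Start sites of the regulators and of the bone genes were not all open in these progenitors. Peaks covered start sites of *Runx2*, *Spp1* and *Dlx5* in all 9 libraries, and those of *Alpl* and *Bglap* in 4 of 9. No library held a peak over a start site of *Sp7*, *Dlx6*, *Msx2* or *Ibsp*. The nearest peak of any library lay 2964 bp from an *Sp7* start site, 10342 bp from one of *Dlx6*, 25021 bp from that of *Msx2* and 29485 bp from that of *Ibsp*. Thus 6 of 83 regions (7.23%) lay over a start site, against 12.2% of all regions. By summit, 41 regions were in introns, 39 were intergenic and 3 were in exons.

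**Figure D1:**
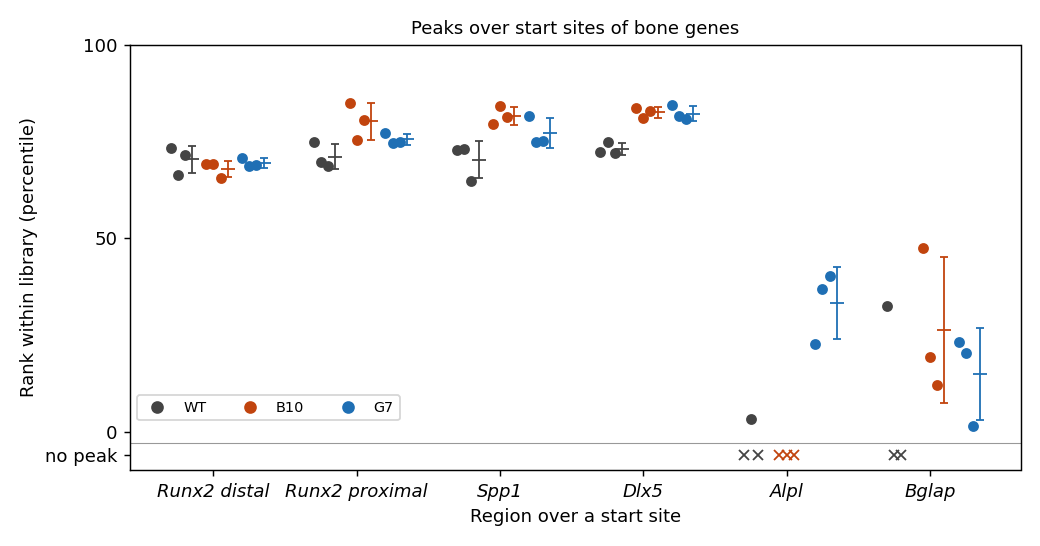
Rank of the peak in the region over each start site (vertical axis, percentile of −log10 q within the library, 100 the strongest), with points for the 3 libraries of a line, a bar for the mean and SD where all 3 had a peak, and crosses where a library had none. The *Dlx5* ranks of B10 and G7 (80.7 to 84.3) lie above those of WT (71.9 to 74.7), the *Alpl* start has peaks in all 3 G7 libraries and in no B10 library, and the *Bglap* start region has a WT peak in replicate 1 only.

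The number of bone gene regions with a peak was 63, 64 and 59 in WT replicates 1, 2 and 3, 65, 73 and 68 in B10, and 61, 59 and 59 in G7. Every B10 library held more of them than every WT and G7 library, and WT and G7 overlapped. The means were 62.0 ± 2.65 in WT, 68.7 ± 4.04 in B10 and 59.7 ± 1.15 in G7 (SD, n = 3). B10 exceeded WT by 6.67 regions (exact two-sided permutation p = 0.1, adjusted over 3 comparisons p = 0.15), and with 3 libraries a line no smaller p than 0.1 can be reached. G7 differed from WT by -2.33 regions (exact permutation p = 0.4, adjusted p = 0.4). Over all regions the share with a peak was also highest in B10, at 79.7% on average, against 75.1% in WT and 74.7% in G7.

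Regions with a peak in 2 or 3 of the 3 libraries of a clone and in 0 of 3 WT libraries were called gained, and those with the opposite pattern lost. In B10, 9 of 83 bone gene regions were gained (10.8%, against 10.4% of all regions) and 5 were lost (6.02%, against 7.58%). In G7, 2 were gained (2.41%, against 5.69%) and 6 were lost (7.23%, against 7.42%). Both clones gained 1 region (1.20%, against 2.97%) and both lost 3 (3.61%, against 4.36%). Between the clones, 10 regions were found in B10 and in no G7 library (12.0%, against 8.25%) and 3 in G7 and in no B10 library (3.61%, against 4.24%).

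**Figure D2:**
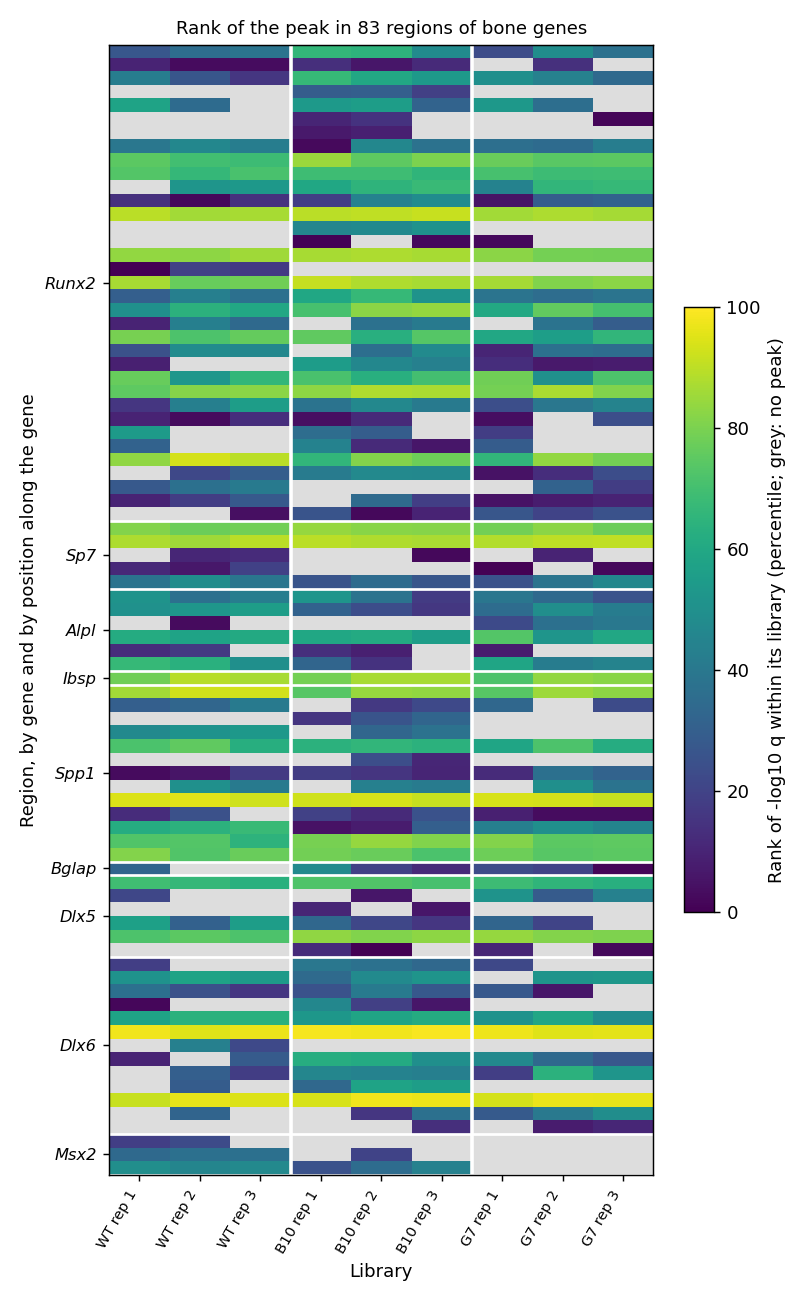
Rank of the peak (colour, percentile of −log10 q within the library) in each of 83 regions (rows, grouped by gene) in each of 9 libraries (columns), with grey where the library had no peak. Grey rows across all 3 G7 libraries are seen for the 3 *Msx2* regions, and 35 of 83 rows have no grey cell.

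To compare strength, each peak was given its rank, the percentile of its −log10 q within its own library, and limma tested the differences over the 47431 regions with a peak in all 9 libraries. Of these, 35 belonged to the bone genes: 16 for *Runx2*, 7 for *Spp1*, 3 each for *Sp7*, *Alpl* and *Dlx6*, 2 for *Dlx5* and 1 for *Ibsp*. No *Msx2* or *Bglap* region could be ranked in this way. In B10, 6 of 35 ranked higher than in WT (17.1%, against 11.0% of all tested) and 2 lower (5.71%, against 5.37%). Over all regions tested, 67.2% of the B10 calls were higher, against 46.6% with each chromosome centred on its median and 53.1% with equal numbers of peaks per library. In G7, 1 ranked higher (2.86%, against 5.39%) and 1 lower (2.86%, against 4.82%). Both clones had 1 higher (2.86%, against 3.81%) and 0 lower (against 1.66%). At an unadjusted limma p under 0.05, 3 were lower in both (8.57%, against 5.02% of all tested) and 1 was higher (2.86%, against 9.15%). Of B10 against G7, 2 ranked higher in B10 (5.71%, against 4.21%) and 1 lower (2.86%, against 2.39%).

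Libraries with the same replicate number deviated together, and with that number as a block the counts rose over all regions as well. In B10, 12 of 35 were then higher (34.3%, against 21.4% of all tested) and 4 lower (11.4%, against 12.1%). In G7, 4 were higher (11.4%, against 13.2%) and 5 lower (14.3%, against 13.4%). Both clones had 4 higher (11.4%, against 9.62%) and 3 lower (8.57%, against 5.51%), and between the clones 10 were higher in B10 (28.6%, against 14.3%) and 2 lower (5.71%, against 6.58%). The median difference of the 35 regions was 2.17 percentile points for B10 minus WT, against 0.70 over all regions tested, and -0.66 for G7 minus WT, against -0.03. With each chromosome centred on its median these were -0.41 in B10, against -0.83 over all regions tested, and 0.16 in G7, against 0.07, so the sign of both medians turned in both sets.

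**Figure D3:**
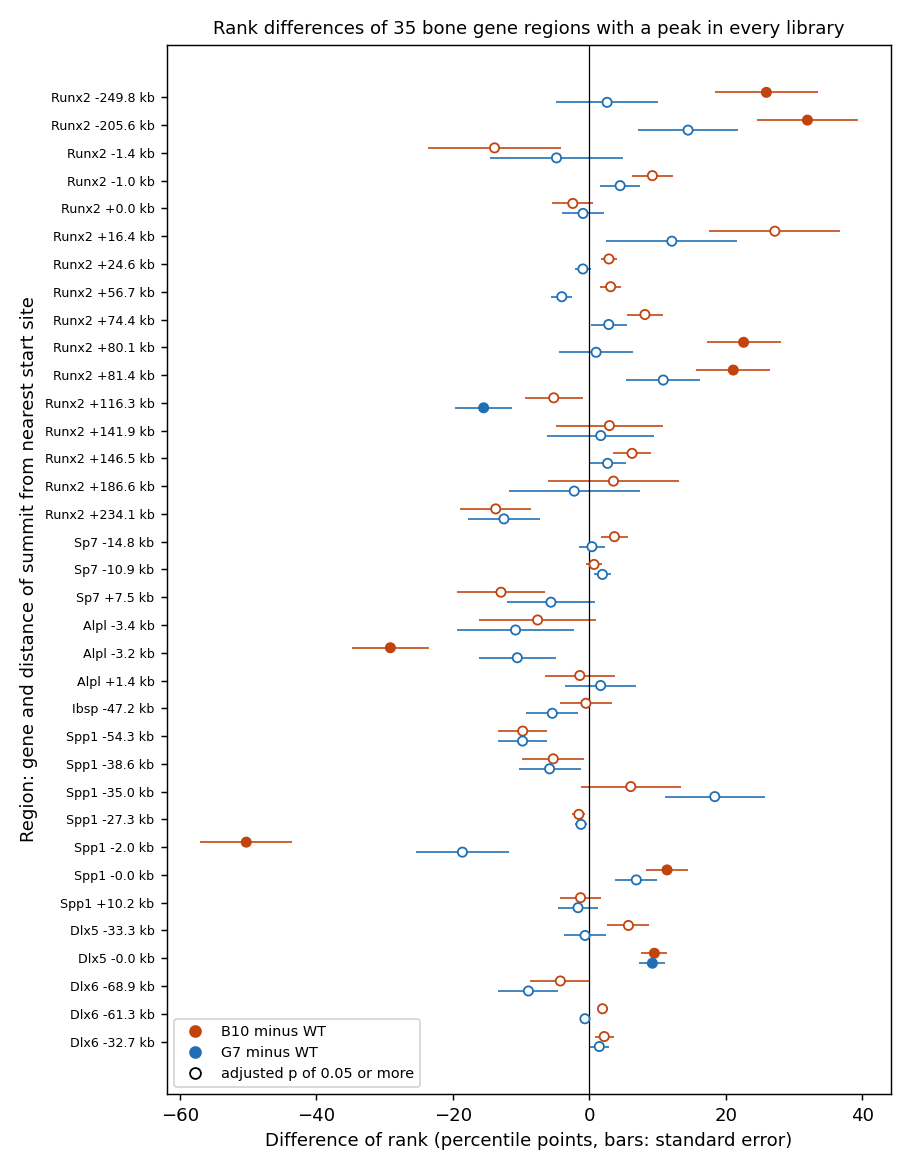
Difference of rank from WT (horizontal axis, percentile points, bars for the standard error) in the 35 regions with a peak in every library, for B10 and G7, with filled points for an adjusted p below 0.05. The *Spp1* region about 2 kb before the start falls by 50.3 points in B10, the *Dlx5* start is the region with filled points for both clones, and most *Runx2* points of B10 lie to the right of 0.

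*Runx2* is read from a distal and a proximal promoter, and both were open in every library. Over the distal start (chr17:44814221-44815305, also inside *Supt3*, which runs on the opposite strand) the ranks were 73.2, 66.4 and 71.4 in WT, 69.1, 69.0 and 65.5 in B10, and 70.7, 68.6 and 68.8 in G7. These overlapped, with differences from WT of -2.43 ± 3.01 in B10 (SE, adjusted p = 0.643) and -0.93 ± 3.01 in G7 (adjusted p = 0.886). Over the proximal start (chr17:44733923-44736732) the ranks were 74.7, 69.6 and 68.7 in WT, 84.9, 75.3 and 80.4 in B10, and 77.2, 74.5 and 74.7 in G7. Every B10 library lay above every WT library, and G7 overlapped with WT. The difference was 9.23 ± 2.98 in B10 (adjusted p = 0.0631, or 0.00814 with the replicate block) and 4.50 ± 2.98 in G7 (adjusted p = 0.382). Without WT replicate 1 or B10 replicate 2 the B10 value passed the threshold without the block, at 0.0342 and 0.0453.

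Away from the promoters, 4 *Runx2* regions ranked higher in B10, and these 4 were named after their values were seen. The largest rise was far upstream, in an intron of *Supt3*, at chr17:45020166-45020744, for which the far-upstream sequence is given above. Its ranks were 42.3, 26.8 and 15.8 in WT, 67.1, 59.9 and 53.7 in B10, and 49.9, 44.0 and 34.4 in G7. Every B10 library exceeded every WT and G7 library, and G7 overlapped with WT. The rise was 32.0 ± 7.36 in B10 (adjusted p = 0.0174) and the difference in G7 was 14.5 ± 7.36 (adjusted p = 0.250, or 0.0378 with the block). A further *Supt3* intron region, chr17:45064411-45065921, rose by 25.9 ± 7.51 in B10 (adjusted p = 0.0431) and differed by 2.59 ± 7.51 in G7 (adjusted p = 0.872). The B10 call of the former was lost without WT replicate 2 or 3 or B10 replicate 1 or 2 (adjusted p up to 0.0627), and that of the latter without any 1 WT library, B10 replicate 1 or 2 or G7 replicate 3 (up to 0.131).

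Inside the gene, a pair of neighbouring intron regions rose in B10. At chr17:44652871-44653616, which held 1 RUNX core and 1 AP-1 match near its summit, the ranks were 50.3, 64.3 and 59.8 in WT, 70.7, 82.7 and 84.2 in B10, and 60.5, 76.0 and 70.4 in G7. Each clone library exceeded the WT library with the same replicate number. The rise was 21.1 ± 5.45 in B10 (adjusted p = 0.0280) and the difference in G7 was 10.8 ± 5.45 (adjusted p = 0.246, or 0.0143 with the block). At chr17:44654408-44654855, with 2 AP-1 matches, the ranks were 30.1, 43.0 and 36.9 in WT, 59.6, 67.0 and 51.2 in B10, and 38.6, 35.8 and 38.5 in G7. Here B10 stood above both other lines in every library, by 22.6 ± 5.43 over WT (adjusted p = 0.0210) and 21.6 ± 5.43 over G7 (adjusted p = 0.0455). The rise over WT was lost at the former region without WT replicate 1 or 3 or B10 replicate 2 or 3 (adjusted p up to 0.0993), and at the latter without WT replicate 3 or B10 replicate 1 or 2 (up to 0.0824).

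One *Runx2* intron region ranked lower in G7, at chr17:44617861-44618943. Its ranks were 79.5, 72.2 and 76.4 in WT, 75.4, 63.2 and 73.8 in B10, and 59.9, 56.0 and 65.7 in G7, so that every G7 library lay below every WT library. The drop was -15.5 ± 4.23 in G7 (adjusted p = 0.0464) and the difference in B10 was -5.23 ± 4.23 (adjusted p = 0.450). The G7 call was lost without any 1 library other than B10 replicate 2 (adjusted p up to 0.130). Near the end of the gene, chr17:44500123-44501026 had ranks of 83.4, 93.5 and 89.5 in WT, 65.7, 81.4 and 78.1 in B10, and 65.8, 83.8 and 79.1 in G7. Within each replicate number WT was highest. The differences were -13.7 ± 5.22 in B10 (adjusted p = 0.105) and -12.5 ± 5.22 in G7 (adjusted p = 0.163), and with the block both passed the threshold (0.000456 and 0.00123).

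By presence, of its 35 regions *Runx2* had 5 gained in B10, 2 lost in B10, 0 gained in G7 and 1 lost in G7. Over 431 other regions within 5 Mb these shares were, in the same order, 14.2%, 4.64%, 2.55% and 7.89%. Over all regions they were 10.4%, 7.58%, 5.69% and 7.42%. The region lost in both clones, in an intron at chr17:44667494-44667747, had ranks of 0.0326, 19.5 and 17.2 in WT and no peak in any of the 6 KO libraries. Its AP-1 match is in the lost *Runx2* sequence above. Of the regions gained in B10, chr17:44706537-44706777, about 28 kb into the gene from the proximal start, had the highest ranks, at 45.8, 47.4 and 51.1, with no peak in WT or G7. It was chosen after its values were seen.

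The values around *Runx2* moved in B10 as well. The median difference of B10 from WT was 2.06 points over 2133 tested regions of chromosome 17 and 3.47 over 212 regions within 5 Mb of *Runx2*, of which 17.9% ranked higher. For G7 the medians were -0.66 and 0.57. Their part in the result was not tested. Chromosome centring subtracts the median rank of the chromosome in each library, a shift that is not the median difference given here. With it, the far-upstream region chr17:45020166-45020744 still passed in B10 (28.6, adjusted p = 0.0215). The calls at chr17:44652871-44653616 (0.0636), chr17:44654408-44654855 (0.0514), chr17:45064411-45065921 (0.0752) and, in G7, chr17:44617861-44618943 (0.0664) did not. Ranking by fold enrichment, the ratio of peak signal to background, also ended these last 4 calls, with adjusted p of 0.0931 to 0.633.

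**Figure D4:**
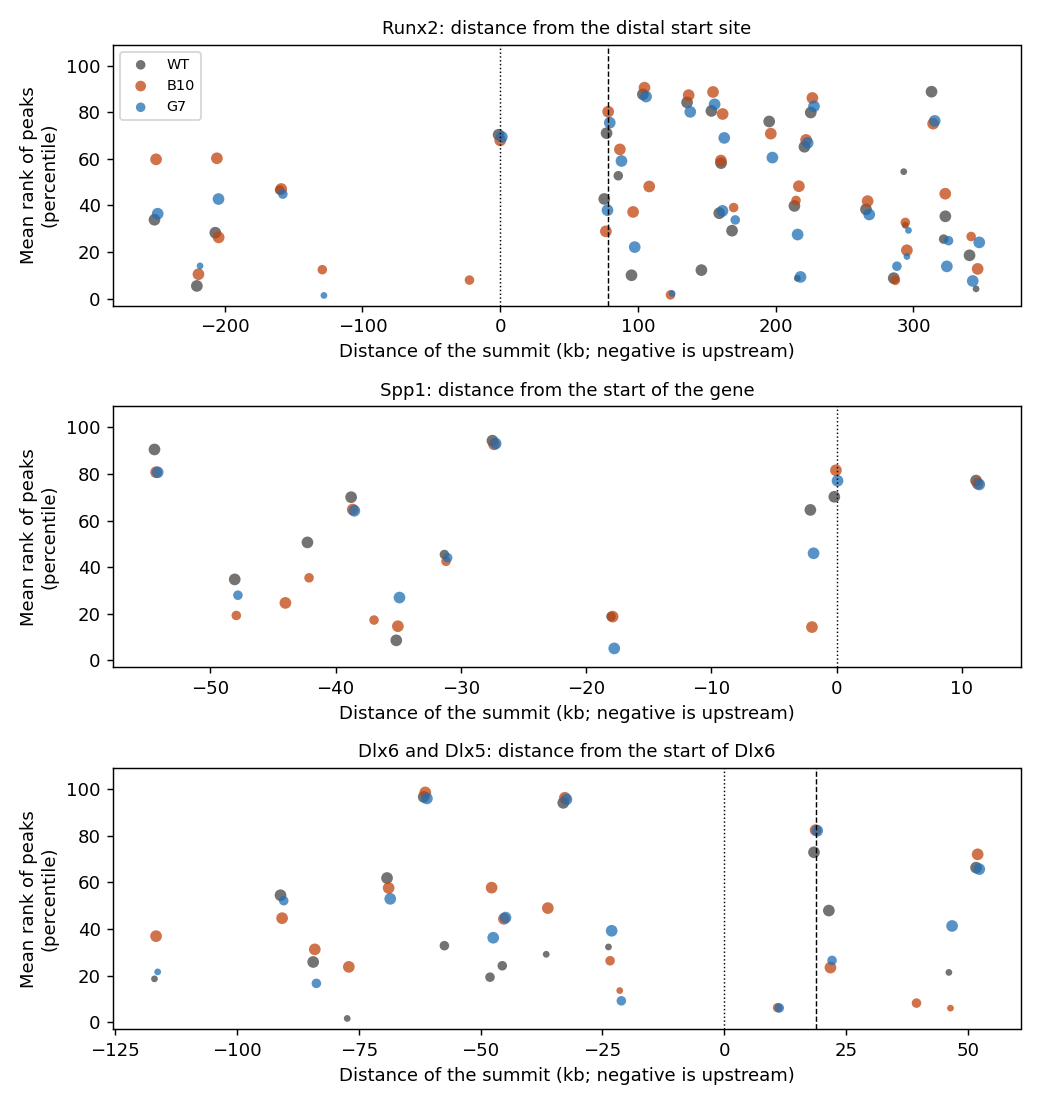
Mean rank of the peaks of each line (vertical axis, percentile of −log10 q) against the distance of the summit in kb, for *Runx2*, *Spp1* and the *Dlx6* and *Dlx5* pair, with larger points where more of the 3 libraries held a peak and lines set apart slightly along the axis. Dotted lines mark the start named in the panel title, and dashed lines the proximal *Runx2* start and the *Dlx5* start. Just before the *Spp1* start WT ranks at 64.6, G7 at 46.0 and B10 at 14.3.

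*Sp7*, the factor that acts after RUNX2, had no peak over its start sites in any library. Its strongest region lay upstream at chr15:102376603-102378352, with ranks of 87.7, 85.9 and 89.6 in WT, 89.6, 88.2 and 87.5 in B10, and 88.3, 90.0 and 90.6 in G7, which overlapped. No *Sp7* region passed the rank test in either clone, with or without the block. By presence, the region nearest to the start, chr15:102370106-102370897, had ranks of 11.4, 6.56 and 19.2 in WT, no peak in B10, and ranks of 0.319 and 2.05 in G7 replicates 1 and 3. It was lost in B10 only.

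*Dlx5* and *Dlx6* lie next to each other and point toward each other. The *Dlx5* start (chr6:6881114-6882239), whose upstream sequence with a homeodomain match is given above, was the only region called higher in both clones. Its ranks were 72.2, 74.7 and 71.9 in WT, 83.5, 81.0 and 82.9 in B10, and 84.3, 81.5 and 80.7 in G7. All 6 KO libraries lay above all 3 WT libraries. The rise was 9.52 ± 1.92 in B10 (adjusted p = 0.00992) and 9.23 ± 1.92 in G7 (adjusted p = 0.0167), and both clones were set against the same WT libraries. The G7 call was lost without WT replicate 3 (adjusted p = 0.0568) or G7 replicate 1 (0.0557).

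Much of chromosome 6 moved the same way in B10. The median difference of B10 from WT was 5.69 points over 2613 regions of the chromosome and 6.67 over 90 regions within 5 Mb of the gene, of which 30.0% ranked higher. In G7 these medians were 1.45 and 1.33. Their part in the result was not tested. Chromosome centring subtracts the median rank of the chromosome in each library, a shift that is not the median difference given above. With it, the *Dlx5* start differed by 2.24 in B10 (adjusted p = 0.488) and by 7.42 in G7 (adjusted p = 0.0392). Ranked by fold enrichment, neither clone passed (0.206 in B10 and 0.488 in G7).

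Both clones gained 1 region, behind *Dlx5* at chr6:6874139-6874544. It had no peak in WT, ranks of 12.3 and 0.227 in B10 replicates 1 and 2, and ranks of 10.2 and 2.06 in G7 replicates 1 and 3, all in the lower part of their lists. Its call was absent when weaker peaks, with a −log10 q below 2, were left out. Upstream of *Dlx6*, chr6:6806158-6806356 was lost in both clones. It had ranks of 43.7 and 22.0 in WT replicates 2 and 3 and no peak in WT replicate 1 or in any KO library.

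The strongest peaks of the whole set were intergenic or in introns of the noncoding *Dlx6os1*, upstream of *Dlx6*. At chr6:6801466-6802720 the ranks were 95.1 to 97.9 in WT, 98.0 to 99.2 in B10 and 95.1 to 97.3 in G7, and every B10 library lay above every WT and G7 library. B10 differed from WT by 1.92 ± 0.79 (adjusted p = 0.132, or 0.0109 with the block) and from G7 by 2.58 ± 0.79 (adjusted p = 0.0878, or 0.00475 with the block). After centring on the chromosome the difference of B10 from WT was -5.36 (adjusted p = 0.00864). At chr6:6829939-6831224 they were 91.5, 96.4 and 94.6 in WT, 93.9, 97.9 and 97.2 in B10, and 93.7, 96.8 and 96.4 in G7. In the latter each clone library exceeded the WT library of its number. The differences were 2.17 ± 1.41 in B10 (adjusted p = 0.337) and 1.45 ± 1.41 in G7 (adjusted p = 0.571), and with the block both passed (0.00629 and 0.0489). Neither value was past the threshold in the same direction after centring on the chromosome, where B10 differed by -5.11 (adjusted p = 0.0430) and G7 by -0.36 (adjusted p = 0.924). Both regions ranked at 91.5 or more in every library on a scale that ends at 100. They had little room to rise with their chromosome, so the centred values are limited by the scale. The part of this limit was not tested.

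*Msx2* encodes a repressor that is active in early skeletal cells. Its 3 regions lay 25.0 to 46.2 kb from its start site, behind the gene and in introns of the noncoding *Gm2762*, and none of them held a peak in any G7 library. At chr13:53426340-53426830 the ranks were 49.6, 45.5 and 47.0 in WT and 25.1, 35.5 and 43.9 in B10, so that B10 kept the peak at ranks below those of every WT library. At chr13:53443674-53444164 they were 34.3, 37.0 and 36.8 in WT, with a single B10 peak, in replicate 2, of a rank below these. At chr13:53447715-53448053, lost in both clones, they were 18.6 and 22.9 in WT replicates 1 and 2. Of 484 regions within 5 Mb, 12.8% were lost in G7 and 11.0% in B10, against 7.42% and 7.58% of all regions.

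*Alpl* differed between the clones at its start. The start region (chr4:137796036-137796875), with the GC-rich sequence above, held a peak of rank 3.12 in WT replicate 2 only, none in B10, and peaks of 22.6, 36.8 and 40.2 in G7. It was thus found in G7 and in no B10 library, and the single weak WT peak kept it from a call as gained. In an intron, chr4:137787587-137788942 had ranks of 50.5, 52.4 and 55.7 in WT, 31.5, 23.5 and 16.1 in B10, and 35.4, 49.6 and 41.9 in G7. Every B10 library lay below every other library. The drop was -29.2 ± 5.68 in B10 (adjusted p = 0.00857), the difference in G7 was -10.6 ± 5.68 (adjusted p = 0.276), and that of B10 from G7 was -18.6 ± 5.68 (adjusted p = 0.0858, or 0.0407 with the block). The median of 435 regions within 5 Mb was 1.17 in B10. The B10 call held with each library left out in turn (adjusted p up to 0.0372) and with chromosome centring (-29.5, adjusted p = 0.00765). It was lost by fold enrichment, where the drop was -13.3 (adjusted p = 0.185).

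*Spp1* held the largest difference of the 35 ranked regions, close to its start. In the near-upstream region (chr5:104432866-104433322, 1796 bp before the start) the ranks were 61.8, 64.3 and 67.7 in WT, 4.81, 7.63 and 30.5 in B10, and 43.1, 49.8 and 45.0 in G7. The 3 lines did not overlap, with WT highest and B10 lowest. The fold enrichment of the peak was 8.42, 9.03 and 10.1 in WT, 2.70, 2.81 and 4.32 in B10, and 5.45, 6.32 and 5.75 in G7. The drop in rank was -50.3 ± 6.76 in B10 (adjusted p = 0.00161), and the difference in G7 was -18.6 ± 6.76 (adjusted p = 0.115, or 0.0372 with the block). G7 also passed without B10 replicate 3 (0.0426), a library that enters the G7 value only through the shared spread. B10 lay below G7 by -31.7 ± 6.76 (adjusted p = 0.0245). The B10 call held with each library left out in turn, with adjusted p up to 0.00927. With equal numbers of peaks per library the region had no peak in B10 replicates 1 and 2 and could not be ranked.

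At the *Spp1* start itself (chr5:104434619-104435411), whose sequence with a RUNX core is given above, the order was the reverse. The ranks were 72.9, 73.1 and 64.7 in WT, 79.6, 84.1 and 81.2 in B10, and 81.6, 74.7 and 75.1 in G7. All KO libraries lay above all WT libraries. The rise was 11.4 ± 3.09 in B10 (adjusted p = 0.0339) and the difference in G7 was 6.87 ± 3.09 (adjusted p = 0.195). The B10 call was lost without any 1 of WT replicates 2 and 3, B10 replicates 1, 2 and 3 and G7 replicate 3, with adjusted p of 0.0519 to 0.116. The median of 189 regions within 5 Mb was -1.68 in B10 and -2.85 in G7, opposite in sign to the start.

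Farther up, chr5:104380350-104380965 ranked at 86.0, 92.6 and 93.1 in WT, 73.9, 84.6 and 83.7 in B10, and 74.2, 85.2 and 82.9 in G7, so that all KO libraries lay below all WT libraries. The differences were -9.78 ± 3.61 in B10 (adjusted p = 0.0960) and -9.80 ± 3.61 in G7 (adjusted p = 0.120), and both passed with the block (0.000363 and 0.000622). By presence *Spp1* had, of its 13 regions, 2 gained in B10 and 1 lost in G7, and none was called in both clones. Of 371 other regions within 5 Mb, 4.58% were gained in B10 and 9.43% lost in G7, against 10.4% and 7.42% of all regions.

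*Ibsp* had a single region, chr5:104251710-104252438, 46.7 kb before its start, with ranks of 78.3 to 89.3 in WT, 79.0 to 86.9 in B10 and 72.0 to 83.7 in G7, which overlapped. The difference was -0.52 ± 3.82 in B10 (adjusted p = 0.949) and -5.44 ± 3.82 in G7 (adjusted p = 0.413, or 0.0137 with the block). The *Bglap* start region (chr3:88384179-88384969) held a peak of rank 32.6 in WT replicate 1 and none in WT replicates 2 and 3. It held a peak in all 6 KO libraries, at 47.5, 19.2 and 11.9 in B10 and 23.1, 20.4 and 1.35 in G7. Of these 7 peaks, 4 covered the start site itself. The WT peak of replicate 1 kept it from a call as gained. *Bglap* has the near-identical copies *Bglap2* and *Bglap3* beside it, and short reads may be split between them, so its peaks are uncertain.

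The 83 regions shared few features beyond their genes. Their median width was 702 bp, against 665 bp for all regions, the median GC content around the summit was 49.3% in both, and the median rank was 37.4 against 41.9. They lay farther from a start site, at a median of 41.8 kb against 20.9 kb, and 42.2% held a peak in all 9 libraries, against 48.7%. Within 201 bases around the summit, a RUNX core was found in 18 (21.7%, against 22.2% of all regions), an AP-1 match in 24 (28.9%, against 22.3%) and a homeodomain match in 7 (8.43%, against 5.05%). These are descriptions over regions that share genes and libraries, with no test.

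Of the member start regions with a peak in every library, that of *Spp1* had line means that differed most. Among 10558 start regions of other genes, those closest to its pattern over the 9 libraries belonged to *Lmbr1*, *Dok4* and *Hist1h4k*. After each region was centred on its mean, they differed from *Spp1* by 1.52, 1.69 and 1.85 points on average, against a median of 4.69 over all candidates.

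Other genes of the bone pathway were taken from a list of 30 genes for regulators, matrix, mineral, osteocyte and osteoclast signals and the copies of *Bglap*, of which 29 had at least 1 region and *Bglap3* had none. Of their 360 regions, 39 were gained in B10 (10.8%, against 10.4% of all regions) and 16 lost (4.44%, against 7.58%). In G7, 25 were gained (6.94%, against 5.69%) and 21 lost (5.83%, against 7.42%). Both clones gained 13 (3.61%, against 2.97%) and lost 11 (3.06%, against 4.36%). Of 172 ranked regions, 23 were higher in B10 (13.4%, against 11.0% of all tested) and 8 lower (4.65%, against 5.37%), and 7 were higher in G7 (4.07%, against 5.39%) and 5 lower (2.91%, against 4.82%). Both clones had 4 higher (2.33%, against 3.81%) and 0 lower (against 1.66%). With the block, 41 were higher in B10 (23.8%, against 21.4%) and 22 lower (12.8%, against 12.1%), 17 were higher in G7 (9.88%, against 13.2%) and 21 lower (12.2%, against 13.4%), and in both clones 13 were higher (7.56%, against 9.62%) and 5 lower (2.91%, against 5.51%). The median difference was 1.97 in B10, against 0.70 over all regions tested, and -0.39 in G7, against -0.03.

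The same background of 11.0% higher and 5.37% lower in B10, and of 5.39% higher and 4.82% lower in G7, stands beside the groups of the list, which have few ranked regions each. The 130 regions of 9 regulators held 11 of 54 ranked regions higher (20.4%) and 1 lower (1.85%) in B10, and 4 higher (7.41%) and 1 lower (1.85%) in G7. Over the 89 regions of 8 collagen and matrix genes, 6 of 50 were higher (12.0%) and 3 lower (6%) in B10, and 1 was higher and 1 lower in G7 (2.00% each). The 67 regions of 5 mineralisation genes held 1 of 34 higher (2.94%) and 3 lower (8.82%) in B10, and 0 higher and 3 lower (8.82%) in G7. The osteocyte genes had 1 of 7 higher in B10 (14.3%) and 0 in G7, and the signals to osteoclasts had 4 of 26 higher (15.4%) and 1 lower (3.85%) in B10, and 2 higher in G7 (7.69%). Of the copies of *Bglap*, *Bglap2* had 1 ranked region, which was not called.

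A start region with peaks in all KO libraries and in no WT library was found at *Enpp1*, the enzyme that makes the mineralisation inhibitor pyrophosphate. The region (chr10:24711312-24712403) had no peak in WT and ranks of 66.2, 72.8 and 71.6 in B10 and 52.9, 55.0 and 59.8 in G7. Both clones also gained a weaker *Enpp1* region and, among others, 1 each of *Sparc*, *Col1a1*, *Col1a2*, *Tnfsf11*, *Pdpn* and *Smpd3*, and 2 each of *Mef2c* and *Zfp521*. *Mef2c*, which encodes a factor active in muscle and bone, lost 3 regions in both clones. The strongest of these (chr13:83744767-83745613) had ranks of 84.1, 82.4 and 81.4 in WT and no peak in any KO library. *Ank*, which encodes a pyrophosphate transporter, also lost 3, *Msx1* lost 2, and *Phospho1*, *Tnfrsf11b* and *Dmp1* lost 1 each.

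Past the rank threshold in both clones were 4 regions. At chr15:54294190-54294900, near *Tnfrsf11b*, the decoy receptor osteoprotegerin, the ranks were 60.3, 53.0 and 52.8 in WT, 90.5, 86.0 and 84.6 in B10, and 79.7, 78.6 and 75.1 in G7. The 3 lines did not overlap, and the rise was 31.7 ± 3.08 in B10 (adjusted p = 0.000416) and 22.4 ± 3.08 in G7 (adjusted p = 0.00301). A region of *Hey1*, a target of Notch signals, rose by 35.1 ± 6.03 in B10 (adjusted p = 0.00486) and 26.3 ± 6.03 in G7 (adjusted p = 0.0247). A region of *Col1a2*, on chromosome 6, rose by 9.53 ± 1.43 (adjusted p = 0.00264) and 6.23 ± 1.43 (adjusted p = 0.0247). The median difference over that chromosome was 5.69 in B10 and 1.45 in G7, and its part in the rise was not tested. The start of *Cbfb*, the partner of RUNX proteins, rose by 3.43 ± 0.85 (adjusted p = 0.0242) and 3.53 ± 0.85 (adjusted p = 0.0304). All 4 regions also passed in both clones with the block. Ranked by fold enrichment, 5 of the 172 list regions were higher in B10 (against 4.16% of all tested) and 1 in G7 (against 1.56%). At most 1 of the 4 could therefore pass in both clones by that measure.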

How the data were processed

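ATAC-seq was run on 9 libraries of C3H/10T1/2 cells, 3 each of WT, B10 and G7. The authors aligned reads to mm10 with Rsubread and called peaks per replicate with MACS2 (version not given in the sources used here). Each deposited peak carries a fold enrichment (a ratio to background) and, as −log10, a p-value and a q-value. Whether an input was used is unclear, since the peak names mention one and the methods do not. Without read counts, the study's count test could not be run.

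Peaks of all libraries that overlapped or touched were merged into 135835 regions, and 97338 with a peak in at least 2 of 3 libraries of a line were kept and given to the gene of the nearest protein-coding start site (GENCODE M21). A region took its highest peak of each library, ranked as the percentile of −log10 q within that library. Presence calls and limma 3.58.1 (R 4.3.3, trended moderation, Benjamini-Hochberg over all 47431 regions, adjusted p under 0.05) gave the results, with exact permutation tests for single values. The limma code was tried on simulated ranks with independent noise in each library. That trial lacks the shared deviation of same-numbered libraries, so it does not check the fit under it. Members and lists were chosen with earlier results of these data known. Regions over start sites, called in both clones, or of the largest called difference were named by rule. Others were chosen after their values were seen.

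Replicate numbers come from the labels. The deviations of same-numbered libraries from their line means correlated at 0.314 to 0.664 in all 9 pairs, against -0.561 to 0.311 in 18 other pairs. On this the numbers were taken to pair the libraries. The 3 deviations of a line sum to 0, so part of this contrast is built in. The 6 other pairs above 0.1 all joined replicate 2 with replicate 3 (0.210 to 0.311), and every pair of replicate 1 with these was negative. The fit without the block is the main one, as no block is named in the study's methods. Alternatives were the block, stricter peaks, equal peak numbers, other overlaps, chromosome centring, rank by fold enrichment and leaving out libraries. The GRCm38 reference supplied the sequences. Python 3.11.15 was used. The region of 1 gene of the pathway list is counted but not reported here by name.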

Additional observations from a re-analysis of the deposited data

Results flagged for a closer look

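The clones differed from each other in rank at 3 regions by the limma test of B10 against G7. At the near-upstream *Spp1* region (chr5:104432866-104433322) B10 ranked below G7 by -31.7 points (adjusted p = 0.0245), and it did so after chromosome centring as well (-32.3, adjusted p = 0.0226) and by fold enrichment (adjusted p = 0.0390). The call was lost without B10 replicate 1 or 2 or G7 replicate 2 or 3 (adjusted p up to 0.0917). At the *Runx2* intron region chr17:44654408-44654855 B10 ranked above G7 by 21.6 points (adjusted p = 0.0455), and with chromosome centring by 17.2 (adjusted p = 0.116). The call was lost by fold enrichment (adjusted p = 0.404) and without any 1 library other than WT replicate 1 (adjusted p up to 0.159), and with equal numbers of peaks per library the difference was 18.4 (adjusted p = 0.0876). At the *Runx2* intron region chr17:44677522-44678334 B10 ranked above G7 by 7.16 points (adjusted p = 0.0236), with ranks of 87.1, 87.8 and 87.1 in B10, 82.7, 79.1 and 78.7 in G7, and 84.0, 82.9 and 85.7 in WT, and with chromosome centring by 2.72 (adjusted p = 0.445). This call was lost by fold enrichment (adjusted p = 0.915) and without any 1 B10 library or G7 replicate 2 or 3 (adjusted p up to 0.0930), and with equal numbers of peaks per library the difference was 6.07 (adjusted p = 0.0503). The median of 212 regions within 5 Mb of *Runx2* was 2.43 for B10 minus G7, and its part in these values was not tested.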

How the results depend on the processing

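No difference from WT past the threshold without the block changed its sign, but at chr6:6829939-6831224 and chr6:6801466-6802720 near *Dlx6* B10 exceeded WT with the block (2.17 and 1.92) and lay below it with chromosome centring (-5.11 and -5.36), past the threshold each time. Both regions lie near the top of the rank scale, which ends at 100, and had little room to rise with their chromosome. Over named regions, comparisons and alternatives, 295 values kept their side of the threshold, 52 fell below it and 11 rose past it, and the causes were not tested. The 295 include differences that were not called in the main fit and stayed uncalled. Only a called difference could fall below the threshold, so these totals do not give the share of calls that held. With start sites within 50 kb, 49 regions remained. With only the 5-prime end of each gene as its start site, 58 regions were given to the bone genes. The *Runx2* introns downstream of the proximal start lie nearer to the start of *Supt3* (chr17:44777152) than to the 5-prime end of *Runx2* (chr17:44814797). Their assignment to *Runx2* thus rests on its inner start sites. By presence, an equal number of peaks per library gave, of 79 regions, 5 gained in B10 (6.33%, against 8.28% of all regions). It also gave 8 lost in B10 (10.1%, against 9.22%) and 0 gained in both clones (against 2.77%). Peaks covering at least 50% of a region gave, of 76 regions, 8 lost in B10 (10.5%, as over all regions). There, 8 were gained in G7 (10.5%, against 7.86%) and 3 in both (3.95%, against 3.70%). The shares for G7 and for both were then above those of all regions, in place of below them. Peaks with −log10 q of 2 or more gave 0 gained in both (against 2.97%). Of 83 regions, replicates 2 and 3 alone gave 4 gained in G7 (4.82%, against 5.57%) and 2 in both (2.41%, against 3.11%). There, a call needed a peak in both libraries of a line and in neither of the other. With replicate 1 alone, a call rests on a single library of each line, a looser rule. Replicate 1 alone gave 11 lost in B10 (13.3%, against 10.4%), 8 gained in G7 (9.64%, against 10.6%) and 10 lost (12.0%, against 11.0%). It gave 6 gained in both (7.23%, against 6.66%) and 6 lost (7.23%, against 6.05%). It also gave 7 found in G7 and not in B10 (8.43%, against 8.35%).

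For ranks, counts are given in the order higher and lower in B10, higher and lower in G7, higher and lower in B10 against G7, and higher and lower in both clones, in place of 6, 2, 1, 1, 2, 1, 1 and 0. The replicate block gave 12, 4, 4, 5, 10, 2, 4 and 3. Beside the values given in the report, the block brought B10 against G7 past the threshold at the *Runx2* regions chr17:44617861-44618943 (adjusted p = 0.0298), chr17:44652871-44653616 (0.0223), chr17:45020166-45020744 (0.0211) and chr17:45064411-45065921 (0.0295) and at the *Ibsp* region (0.0260). Fold enrichment gave 2, 1, 0, 0, 0, 1, 0 and 0 of 35. Over all regions tested its shares were 4.16, 2.29, 1.56, 1.36, 0.923, 0.719, 1.12 and 0.502%. Chromosome centring gave 2, 4, 1, 0, 0, 1, 0 and 0 of 35, beside 6.79, 7.79, 5.09, 3.12, 2.14, 5.16, 2.82 and 1.53%. An absent peak set to rank 0 gave 13, 6, 3, 4, 8, 3, 1 and 1 of 83. The shares there were 11.6, 6.57, 4.62, 5.67, 5.95, 2.48, 2.87 and 3.39%. Equal peak numbers gave 4, 1, 1, 0, 0, 1, 1 and 0 of 31. Their shares were 8.87, 7.84, 5.74, 4.05, 2.69, 3.81, 3.55 and 1.76%. Replicates 2 and 3 alone, chosen after seeing the data, gave 11, 4, 6, 4, 4, 2, 4 and 2 of 43. Over all regions tested those shares were 16.6, 9.54, 9.60, 8.63, 8.39, 4.33, 7.02 and 3.48%. Of the 172 ranked regions of the pathway list, B10 higher and lower and G7 higher and lower came to 41, 22, 17 and 21 with the block. They came to 5, 1, 1 and 2 by fold enrichment, and to 11 and 13 in B10 with chromosome centring. The shares over all regions are those given above for the same settings.

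With 1 library left out in turn, bone gene regions gained in B10 ranged from 4 to 15 (15 without WT replicate 1, 4 and 5 without B10 replicates 1 and 2), lost in B10 from 3 to 6 (3 without WT replicate 2), gained in G7 from 0 to 5 (5 and 4 without WT replicates 1 and 2, 1, 1 and 0 without G7 replicates 1, 2 and 3), lost in G7 from 4 to 8, gained in both from 0 to 3 (3, 2 and 2 without WT replicates 1, 2 and 3, 0 without B10 replicates 1 or 2 or G7 replicates 1 or 3), lost in both from 1 to 4 (1 without WT replicate 2), in B10 and not G7 from 7 to 15, and in G7 and not B10 from 1 to 4 (1 without G7 replicate 3). Over all regions the presence shares moved as well. Gained ranged from 6.09% to 15.6% and lost from 3.88% to 9.87% in B10. In G7 these were 3.26% to 9.26% and 3.83% to 9.79%, and in both clones 1.94% to 5.75% and 2.14% to 5.08%. Between the clones they were 4.42% to 12.0% in B10 and not G7, and 2.10% to 6.06% in G7 and not B10. Ranks higher in B10 ranged from 1 to 7 (1, 3 and 2 without WT replicate 3 and B10 replicates 1 and 2) and lower in B10 from 2 to 3. Higher in G7, and higher in both clones, ranged from 0 to 1 (0 without WT replicate 3 or G7 replicate 1). Lower in G7 ranged from 0 to 1 (1 only without B10 replicate 2 or 3), higher in B10 than in G7 from 0 to 4 (4 without WT replicate 1, 1 without WT replicate 3 or G7 replicate 1, 0 without each of the other B10 and G7 libraries), lower from 0 to 1 (0 without B10 replicates 1 or 2 or G7 replicates 2 or 3), and lower in both from 0 to 1 (1 without B10 replicate 3). In the pathway list the ranges were 10 to 29 higher and 1 to 12 lower in B10, and 1 to 10 higher and 1 to 7 lower in G7. Every leave-one-out fit has fewer libraries than the full one. In the line that lacks a library, a presence call needed a peak in both libraries that remained, or in neither. Depth is unknown here, so peaks of low rank may come and go with it.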
